A study of Mus musculus with 16 samples.

Results

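The cytosolic ribosomal protein genes of the mouse were examined in colon tumours grown from MC38 cells, a C57BL/6 colon carcinoma line. Members were the protein-coding rows of the gene table whose symbols follow the Rps or Rpl naming pattern, with Rplp0, Rplp1, Rplp2 and Rpsa added and the ribosomal S6 kinases left out. This gave 84 genes of 54532 rows: 31 for the small subunit, 43 for the large subunit, 3 for the stalk and 7 paralogues. The rule used names alone, so no expression value chose a member. Poly-A selected RNA was sequenced in 16 libraries that fall into 8 groups of 2. The tumours were either an MSI line (microsatellite instability) or a CIN line (chromosomal instability), grown after injection into the colon wall of C57BL/6 mice. Every mouse also received dendritic cells grown from bone marrow. These cells had been exposed for 30 minutes, with a lipid transfection reagent, to 2 µg of DNA from MSI or CIN cells, in the form of free cytosolic DNA or of micronuclei. They were injected into the abdomen on days 1, 6 and 12, and tumours were taken on day 15. The labels give no age for the mice, and no group with unexposed dendritic cells was analysed here. Each tumour type is 1 line, so its kind of instability and its other differences from the second line cannot be told apart. RNA of 3 biological replicates was combined, and the labels do not say how these pools relate to the 2 libraries of a group. All p-values therefore describe differences against library-to-library spread, which may be technical.

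A cytosolic ribosome is built from ribosomal RNA and a set of proteins that are each needed in about equal number. The small subunit decodes the messenger RNA, the large subunit joins amino acids, and the stalk proteins recruit the translation factors that hydrolyse GTP. Transcripts of ribosomal protein genes typically begin with a run of pyrimidines, the 5′ terminal oligopyrimidine (TOP) motif, through which mTOR signalling acts on their translation. Growing tumour cells usually make many ribosomes, and Myc is a known activator of the genes involved.

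Promoters from RefSeq (GRCm38.p6) were matched by symbol for 64 of the 84 members. The pyrimidine run CTTTCC, read on the transcribed strand from 50 bases before to 50 bases after the annotated start, was in 20 of these 64 (31.2%), against 5.43% of 27025 promoters. CCGGAAG, a core bound by ETS-family factors, was searched on both strands of the whole window of 250 bases before and 50 after the start. It was in 26 of 64 members (40.6%), against 9.93% of all promoters. CTTTCC and CCGGAAG can overlap at their shared CC, and each was counted for itself. TATAAA, read from 50 bases before the start up to the start, was in 1 of 64 members (1.56%, Rpl22l1), against 3.15% of all promoters. These matches are descriptions of letters, not of binding. The stretches of 60 bases before and 30 bases from the start are printed for 5 members that return below: Rps10 and Rpl13a, which had the largest falls past the threshold between the replicate numbers in MSI tumours, Rpl18 and Rpl35, whose libraries separated by replicate number in both tumour lines, and Rps27l, a paralogue that differed between the lines. Capitals mark CTTTCC and CCGGAAG, and each sequence reads in the direction of its gene. Each of the 5 holds a marked run, so they do not stand for all 64. Rpl11, Rpl27a and Rps7 also separated by replicate number in both lines and lacked CTTTCC in the window, while Rpl15 and Rpl22 had it.
Rps10, chr17:27635215-27635304, minus strand: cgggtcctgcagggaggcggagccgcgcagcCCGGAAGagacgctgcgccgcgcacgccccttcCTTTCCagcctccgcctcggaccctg
Rpl13a, chr7:45128716-45128805, minus strand: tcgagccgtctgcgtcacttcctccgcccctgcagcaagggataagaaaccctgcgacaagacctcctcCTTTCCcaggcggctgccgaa
Rpl18, chr7:45718011-45718100, plus strand: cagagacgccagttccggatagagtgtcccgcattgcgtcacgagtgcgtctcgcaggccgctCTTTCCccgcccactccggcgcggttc
Rpl35, chr2:39005102-39005191, minus strand: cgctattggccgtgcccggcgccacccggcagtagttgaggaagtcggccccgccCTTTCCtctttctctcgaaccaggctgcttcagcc
Rps27l, chr9:66946026-66946115, plus strand: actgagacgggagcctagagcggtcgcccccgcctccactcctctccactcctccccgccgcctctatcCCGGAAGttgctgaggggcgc

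Library totals ran from 11561955 to 17937501 counts. Markers of other tissue differed among libraries and moved with the groups. The 11 colon epithelium markers summed to 425 to 8902 CPM (counts scaled for library depth) in MSI tumours and 97.3 to 6099 CPM in CIN tumours. The 9 skeletal muscle markers summed to 126 to 647 CPM in 5 libraries (1 MSI tumour library, 4 CIN tumour libraries) and to 3.75 to 31.5 CPM in the other libraries. All 7 fibroblast and 7 macrophage markers had counts in every library. In such bulk samples, fewer cells of a type and less RNA per cell cannot be told apart.

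Per unit of transcript length, ribosomal protein genes were among the most abundant of all. Of the 100 protein-coding genes with the highest median FPKM (counts scaled for gene length and library depth, as deposited), 38 were members. The median over the 77 members other than paralogues was 286 FPKM, and 69 of them had a median of at least 100. The stalk protein gene Rplp1 led with a median of 1938 FPKM over 16 libraries (1587 to 2344), ahead of the small subunit gene Rps3a1 at 1475 (1261 to 1667) and the stalk scaffold gene Rplp0 at 1404 (1216 to 1595). The ranges of Rps3a1 and Rplp0 overlapped, so their order does not exceed their spread. Next came Rps15 of the small subunit at 851 FPKM (719 to 1106). The third stalk gene, Rplp2, had 168 FPKM (137 to 223). The 2 rows differ in length, with 2072 bases for Rplp2 and 499 for Rplp1, and without the scaling for length their medians were 358 and 975 CPM. Among members with known further roles, Rpsa, also described as a laminin receptor, stood at 552 FPKM and Rps6, the target of the S6 kinases, at 664. Rpl5 and Rpl11, which bind the 5S RNA and can hold back Mdm2, stood at 306 and 195 FPKM.

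**Figure D1:**
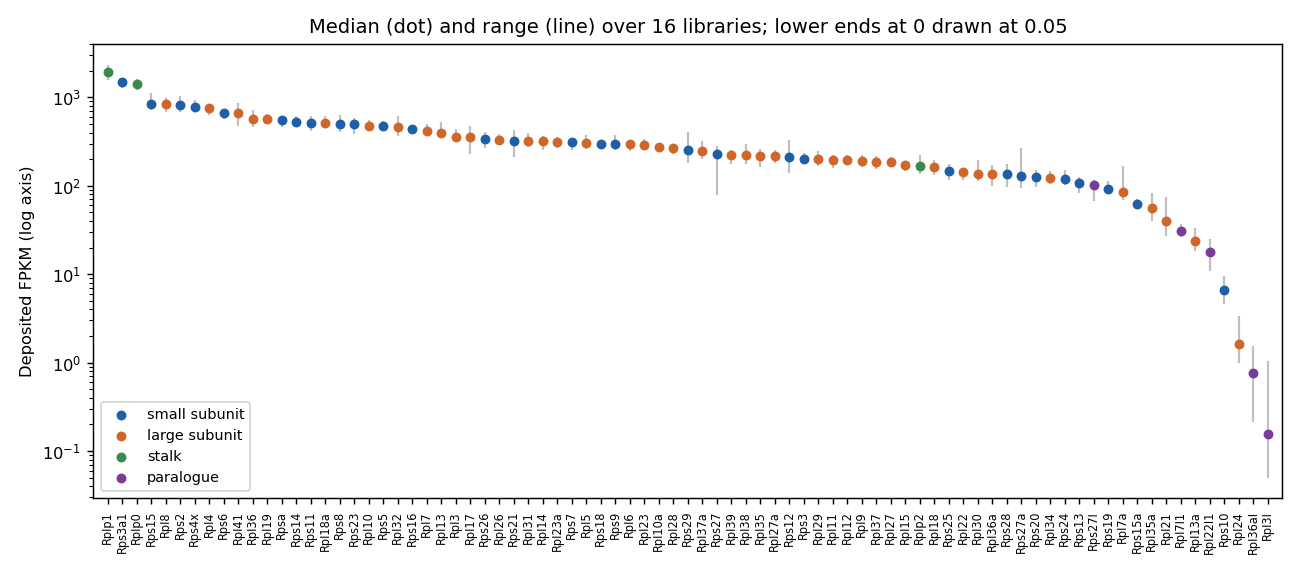
Deposited FPKM on a log axis for 81 members with a median above 0, ordered by the median over 16 libraries (dot, coloured by class) with the range as a line. Most members lie between 100 and 1938 FPKM, and Rps10, Rpl24, Rpl36al and Rpl3l form a low tail.

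The paralogues were lower than the genes they resemble. Rps27l, a target of p53 in other settings, reached 101 FPKM against 228 for Rps27. Rpl22l1 had 17.9 FPKM against 144 for Rpl22, and Rpl7l1 had 30.9. Rpl36al was at 0.756 FPKM, and Rpl3l, which takes the place of Rpl3 in heart and skeletal muscle, at 0.157 (0 to 1.05). Rpl39l and Rpl10l, known from testis, had medians of 0. Rpl39l reached at most 0.292 FPKM, and Rpl10l had 0 counts in all libraries, which allows up to 0.167 to 0.26 CPM in a single library (3 counts, covering counting error only). These 2 were not tested, since neither passed the filter on low counts, which the other 82 passed.

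Some core members were also low, and parts of their transcripts are shared with other rows of the table, as are those of higher members. Rps10, a small subunit protein that is ubiquitylated when ribosomes collide, had a median of 6.57 FPKM (4.58 to 9.43). The row of its processed pseudogene Rps10-ps2 held 110 to 166 CPM, and rows named as Rps10 pseudogenes held 90.5% of the counts of Rps10 and its pseudogenes together. Rpl24 of the large subunit had a median of 1.61 FPKM (0.982 to 3.38). Of its 100-base words, 80.1% also occur in transcripts of other genes in GENCODE M21, and 47% of its exon bases lie within Gm28037, a row with 0 counts. Rpl13a, a large subunit protein also known from interferon-driven translational control, had 23.9 FPKM, with 35.4% of its exon bases inside Gm45713, again a row with 0 counts. Rps10 shared 22.3% and Rpl13a 33.0% of such words, less than Rps6 (83.6%, at 664 FPKM) and Rpl5 (82.7%, at 306 FPKM). Rpl22, Rps27l and Rpl3l shared no such word with any other gene, and Rpl32 shared 4.75%. The levels of Rps10, Rpl24 and Rpl13a are uncertain, because the sources used here do not say how reads common to several rows were counted. The same limit holds for other members that share words. Over the 82 tested members the share of common words had a Spearman correlation of 0.121 with the median FPKM, a description across genes, which are not independent.

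The members varied little from library to library. The median SD of log2 CPM over 16 libraries was 0.169 for the 82 tested members and 0.419 for all genes tested. These values were not matched for abundance, and the members were among the most abundant genes. Measured against the mean log2 CPM of all tested members in the same library, the median SD was 0.109, and 35 members had an SD below 0.1. Among the tightest were Rpl27a (0.042), Rpl22 (0.057) and Rpl37 (0.057), which kept a nearly fixed ratio to the rest. The widest were Rpl3l (1.17), Rpl36al (0.61) and Rpl24 (0.50), all 3 with few counts, and Rps27a (0.46). Rps27a, which encodes a small subunit protein fused to ubiquitin, was well detected and still ranged from 195 to 539 CPM. Its 4 highest values, 539, 524, 508 and 460 CPM, came from replicate 1 libraries of both tumour lines. Rps27 ranged from 84.1 CPM in 1 CIN tumour library given MSI micronuclei to 290 CPM. Rps27rt, a near copy, had 41.9 to 155 CPM. In all, 9 members had an SD above 0.3, the others being Rpl21, Rps27, Rpl17, Rps10 and Rpl7a, of which Rpl21, Rpl17 and Rpl7a were singled out after their values were seen. Over the 82 tested members this SD had a Spearman correlation of 0.0045 with the share of common words, again as a description across genes.

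**Figure D2:**
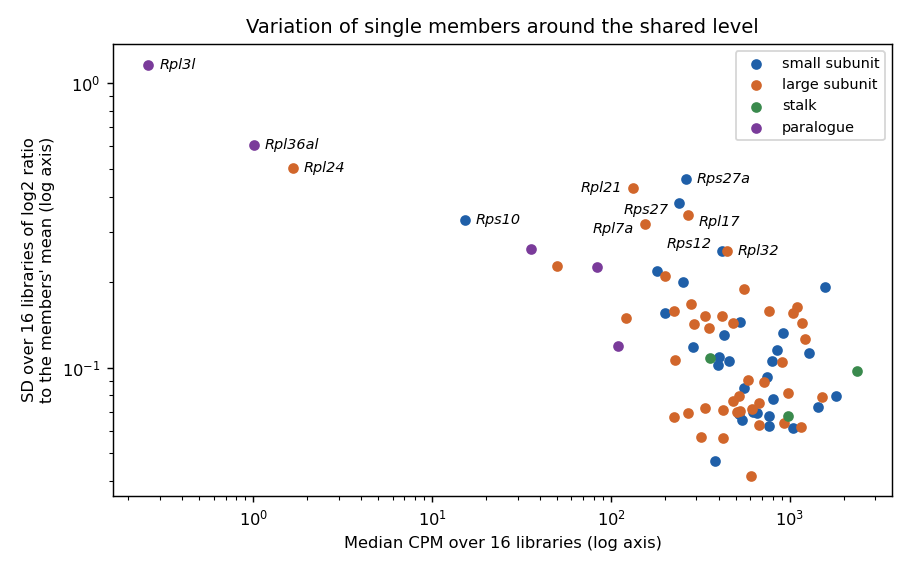
SD over 16 libraries of each tested member's log2 ratio to the members' mean, against its median CPM (both axes log). Most members lie below 0.3, the low paralogues Rpl3l and Rpl36al lie highest, and Rps27a stands above members of like abundance at 0.46.

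Between the tumour lines, 2 of the 82 tested members passed the test. The comparison of MSI with CIN tumours averaged the 4 DNA treatments, with edgeR's quasi-likelihood test and Benjamini-Hochberg adjustment over all 18777 genes at 0.05. Of all genes, 5.8% passed in either direction, 2.32% higher and 3.48% lower in MSI tumours, and of the members 1.22% passed in each direction. The median log2 fold change was 0.017 over the members and 0.056 over all genes. At an unadjusted p below 0.05 there were 12 of 82 members and 4144 of 18777 genes.

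Rpl32, a large subunit protein gene at chr6:115805505-115808747 (GRCm38, minus strand) that also holds the small nucleolar RNA gene Snora7a, was lower in MSI tumours. Its 8 MSI tumour libraries ran from 376 CPM over a median of 385 to 432, and its 8 CIN tumour libraries from 459 over 545 to 635. The groups did not overlap, which held for no other member, against 1.88% of all genes lower and 1.23% higher without overlap. The log2 fold change was -0.44 ± 0.089 (SE), with an adjusted p of 0.0181 in edgeR's test. Its adjusted p lay between 0.0588 and 0.0631 when any of 4 libraries was left out: CIN tumour with MSI micronuclei 1, CIN tumour with CIN micronuclei 1, MSI tumour with MSI micronuclei 2, or CIN tumour with CIN free DNA 2. Rps27l, at chr9:66946086-66949516 (plus strand), was higher in MSI tumours, at 81.8 to 92.1 CPM (median 88.0) against 56.7 to 89.9 (median 67.3), and the groups overlapped. The log2 fold change was 0.35 ± 0.092, with an adjusted p of 0.0496 in the same test, and it was lost when any 1 of 15 of the 16 libraries was left out (0.0576 to 0.150).

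Rpl22 and Rpl22l1 were examined as a pair. In human cancers with microsatellite instability the RPL22 gene is often truncated at a short repeat, and RPL22 protein is known to hold down RPL22L1. In these mouse tumours Rpl22 had 416 ± 47.6 CPM in MSI (SD, n = 8) and 418 ± 40.6 CPM in CIN tumours (SD, n = 8). The log2 difference of -0.01 ± 0.10 did not pass (adjusted p 0.973, edgeR), and it took both signs when single libraries were left out (-0.06 to 0.09). Rpl22l1 had 38.3 ± 3.78 and 32.0 ± 5.40 CPM (SD, n = 8 each), a log2 difference of 0.26 ± 0.12 that did not pass (adjusted p 0.237, edgeR). On the FPKM scale Rpl22l1 amounted to 11.3 to 18.9% of Rpl22 in MSI tumours (median 13.0%) and 8.15 to 14.3% in CIN tumours (median 11.8%). Transcript levels do not show whether the protein is intact.

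**Figure D3:**
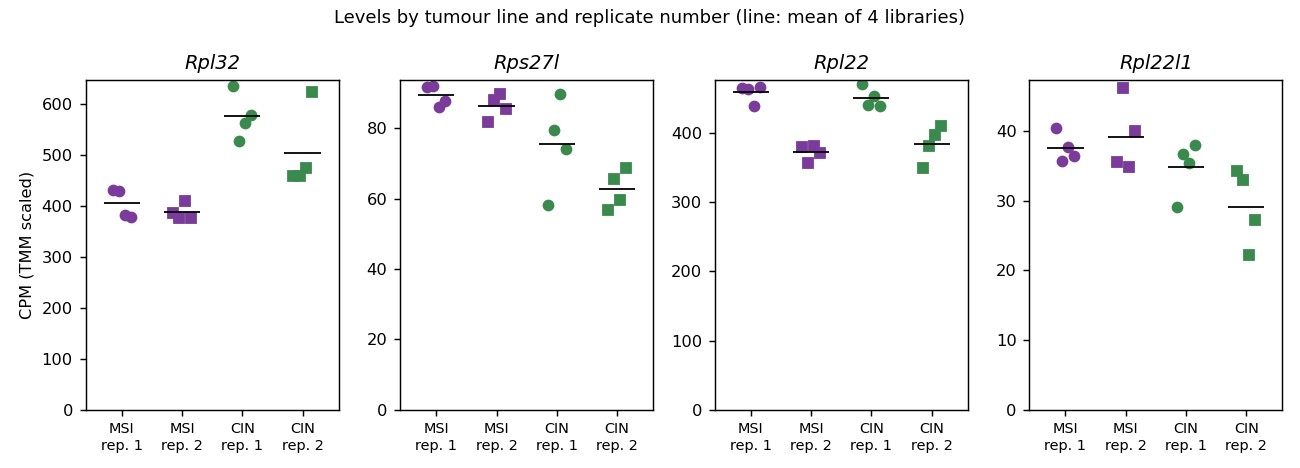
CPM of Rpl32, Rps27l, Rpl22 and Rpl22l1 in each library, by tumour line and replicate number, with the mean of 4 libraries as a line. Every MSI tumour library lies below every CIN tumour library for Rpl32 only, while Rpl22 differs between the replicate numbers rather than the lines.

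The other 80 tested members did not pass between the lines in this test, which does not show that they were equal. The test left the replicate number out of the model. With replicate number terms within each line, 3428 of 18777 genes passed, including some of these members. Among them Rps21 (0.38), Rps12 (0.38) and Rpl35a (0.34) were higher in MSI tumours, and Rpl31 (-0.32), Rpl13 (-0.26) and Rps2 (-0.25) lower, as log2 differences. Without those terms, Rplp0 gave a log2 difference of -0.09 ± 0.094, Rplp1 0.07 ± 0.11, Rplp2 0.01 ± 0.12 and Rpsa -0.05 ± 0.11, none past the threshold. Rpl24 gave 0.79 ± 0.21 (adjusted p 0.0561, edgeR) at 1.05 to 3.27 CPM over all libraries. With the replicate number terms Rpl24 passed, at 0.795 ± 0.223 (adjusted p 0.0355, edgeR). To ask which members changed unequally, the libraries were also scaled to the geometric mean of the members. On that scale 6 of 82 members and 994 of 18777 genes passed. Of these members, Rps21 (0.36), Rps27l (0.35) and Rps26 (0.27) were higher in MSI tumours, and Rpl32 (-0.45), Rpl31 (-0.34) and Rpl13 (-0.27) lower, as log2 differences. With TMM factors computed without the members 3 rose and 1 fell, among 1386 of 18777 genes called, and with upper quartile scaling or plain totals 0 rose and 1 fell. No member passed in an additive model of the 11 libraries poor in skeletal muscle transcripts, where 135 of 19383 genes did and 4 members had an unadjusted p below 0.05.

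Other genes of the translation machinery were read from lists. Among mitochondrial ribosomal proteins 5 of 77 rose in MSI tumours and 0 fell, with a median log2 fold change of 0.18. The largest rises were those of Mrps6 (0.74 ± 0.14), Mrpl54 (0.55 ± 0.11) and Mrpl11 (0.47 ± 0.12). Of 15 other TOP mRNAs only Eef1g, a subunit of elongation factor 1, differed, lower by -0.41 ± 0.082. Of 43 genes of ribosomal RNA processing and subunit assembly only Imp3, a component of the U3 particle, differed, higher by 0.42 ± 0.093. None of 15 genes of RNA polymerase I transcription and none of 11 regulators passed, with 5 and 1 at an unadjusted p below 0.05. Of 14 cell cycle genes 2 were lower in MSI tumours, Mcm6 (-0.70 ± 0.18) and Rrm2 (-0.62 ± 0.15). Of 7 fibroblast markers 2 passed, Col1a1 (-1.39 ± 0.12) and Pdgfrb (-1.06 ± 0.23), both lower in MSI tumours. The median over the 7 was -0.23, and 2 of them were positive. Their summed CPM overlapped, at 1811.9 to 5256.5 in MSI and 2409.4 to 4656.5 in CIN tumours. The part of fibroblasts in the member differences was not tested.

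No member passed for the source or the form of the DNA carried by the dendritic cells. For MSI against CIN DNA 0 of 82 members passed edgeR's test, as did 0.0% of all genes, with 0 members at an unadjusted p below 0.05 and 0 in DESeq2. Of all genes, 209 of 18777 had an unadjusted p below 0.05. Member log2 differences lay between -0.16 and 0.20 with a median of -0.002. For free DNA against micronuclei the same counts were 0 members, 0.0% of all genes, 0 unadjusted and 0 in DESeq2, with a median of 0.02. Here 148 of 18777 genes had an unadjusted p below 0.05. These tests left the replicate number out of the model, and they do not show that the members were equal. Rplp0 (0.01 ± 0.094 for source, 0.01 ± 0.094 for form) and Rps6 (-0.03 ± 0.099 and 0.02 ± 0.099) show the size of the standard errors. For the interactions of tumour with source, tumour with form and source with form, 0 members and 0.0% of all genes passed in each. Of all 18777 genes, 285, 159 and 355 had an unadjusted p below 0.05, with 0, 1 and 1 members among them, and DESeq2 called 0 members. The member in both latter cases was Rpl17 (-0.41 ± 0.11 and 0.37 ± 0.11), named after its values were seen, with adjusted p of 1.00 and 0.862 in edgeR's test.

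The clearest pattern in the family followed the replicate number in the library titles. The titles number the 2 libraries of each group 1 and 2, and the sources used here do not say what else the numbers stand for. The members took 4.98%, 5.05%, 5.18% and 5.51% of counts in the replicate 1 libraries of MSI tumours and 4.08%, 4.30%, 4.31% and 4.37% in the replicate 2 libraries. In CIN tumours they took 4.94%, 5.12%, 5.16% and 5.18% in replicate 1 and 4.25%, 4.30%, 4.31% and 4.88% in replicate 2. The share was lower in replicate 2 in all 8 groups, and no replicate 2 library reached any replicate 1 library. Exact 95% binomial intervals of these shares extend at most 0.013 percentage points to either side, for counting error only. Both subunits took part: the Rps genes and Rpsa held 2.10 to 2.40% of counts in replicate 1 against 1.73 to 2.06% in replicate 2, and the Rpl and Rplp genes 2.82 to 3.10% against 2.34 to 2.81%.

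**Figure D4:**
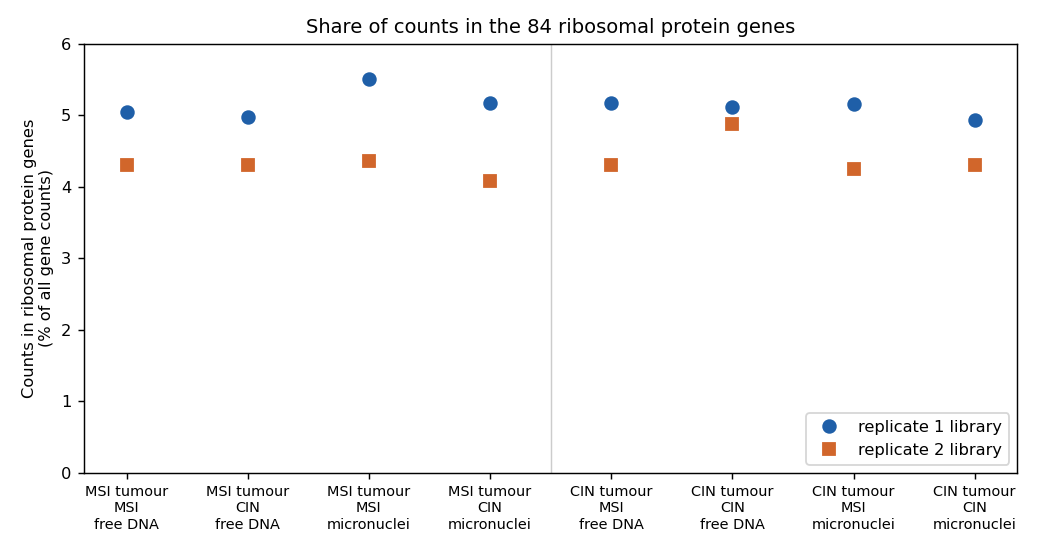
Share of all gene counts in the 84 members for each library, by group, with replicate 1 as circles and replicate 2 as squares. The circles sit between 4.94 and 5.51% and the squares between 4.08 and 4.88%, so the square is below the circle in each of the 8 groups.

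In MSI tumours 33 of 82 members (40.2%) fell from replicate 1 to replicate 2 libraries and 0 rose, by edgeR's test of the replicate number within that line. Of all genes, 31.5% passed in either direction, 18% lower and 13.4% higher. The median log2 fold change was -0.24 over the members and -0.09 over all genes. The falls included 14 of 31 small subunit genes, 16 of 43 large subunit genes, 2 of 3 stalk genes and 1 of 5 tested paralogues (Rpl7l1, -0.28 ± 0.094). The CPM ranges of replicate 1 and 2 did not overlap for 52 members (63.4%), all lower in replicate 2, against 19.5% of all genes lower and 21.3% higher. Leaving out either library of an MSI tumour pair, as done below, removes that pair from this comparison, so both runs nearly repeat each other. The 33 falls numbered 16 with DESeq2 size factors, 12 with TMM factors computed without the members and 11 with no filter on low counts, each of them among the 33, while 5307 and 5141 of 18777 and 3967 of 32782 genes passed. They numbered 6 to 14 without any 1 of 7 libraries: of MSI tumours, CIN micronuclei 1 and 2, MSI free DNA 1 and 2 and CIN free DNA 1 and 2, and of CIN tumours, MSI micronuclei 1. Without any 1 of the former 6 the count over all genes fell as well, from 5912 to between 1391 and 1796, and without the last it was 6426.

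Rps10, at chr17:27630418-27636669 (GRCm38, minus strand), showed the largest fall among the members that passed. Its replicate 1 libraries of MSI tumours had 19.8, 20.2, 22.8 and 23.6 CPM, and its replicate 2 libraries 10.02, 10.1, 13.2 and 15.3 CPM. The log2 fold change was -0.85 ± 0.16 (adjusted p 0.0089, edgeR), and its pseudogene row Rps10-ps2 averaged 151 CPM in the former and 116 CPM in the latter. Rpl13a, at chr7:45125558-45128761 (minus strand), had 59.7, 63.0, 63.8 and 70.6 CPM against 36.3, 36.5, 41.3 and 47.7 CPM, a fall of -0.67 ± 0.10 (adjusted p 0.00583, edgeR). Both genes carry the CTTTCC run near their RefSeq starts in the sequences shown above. They are among the 20 of 64 members with a promoter that do, which include Rpl35a but not Rps12. A link between the run and the falls was not tested. Rps12 of the small subunit had 534, 581, 614 and 666 CPM against 348, 418, 421 and 422, with a log2 fold change of -0.57 ± 0.089. Rpl35a, a gene mutated in some Diamond-Blackfan anaemias, had 249, 265, 292 and 293 CPM against 179.8, 180.2, 206 and 212, a change of -0.50 ± 0.089. In each of these 4 members every replicate 1 library lay above every replicate 2 library.

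Rpl30 of the large subunit fell by 0.46 ± 0.095 on the log2 scale and Rpl39, which lines the exit tunnel, by 0.44 ± 0.098. Smaller falls came in Rpl5 (-0.38 ± 0.093), Rpl11 (-0.26 ± 0.081), Rpsa (-0.34 ± 0.088), Rplp1 (-0.34 ± 0.077), Rplp0 (-0.26 ± 0.086), Rps15 (-0.38 ± 0.081), Rpl37 (-0.32 ± 0.094), Rpl27a (-0.26 ± 0.083) and Rpl22 (-0.30 ± 0.080). Rps6 (-0.25 ± 0.0895, adjusted p 0.0577), Rps19 (-0.25 ± 0.099, 0.080), Rpl10 (-0.26 ± 0.091, 0.0555) and Rpl3 (-0.21 ± 0.092, 0.0994) did not pass edgeR's test. Among these falls, Rpl7l1, Rplp0, Rpl11, Rpl22 and Rpsa lost the threshold in 10 to 16 of the alternative settings each. Rps27l (-0.05 ± 0.099), Rpl22l1 (0.05 ± 0.15), Rps28 (-0.07 ± 0.12) and Rps27 (-0.13 ± 0.16) did not pass, and Rps27l changed sign under other scalings (0.03 with DESeq2 size factors). Scaled to the members' geometric mean, 4 of 82 members and 4190 of 18777 genes passed: Rps10 (-0.61), Rpl13a (-0.43) and Rps12 (-0.34) were lower and Rpl29 (0.37) higher in replicate 2. On that scale the median over all genes moved from -0.09 to 0.15.

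**Figure D5:**
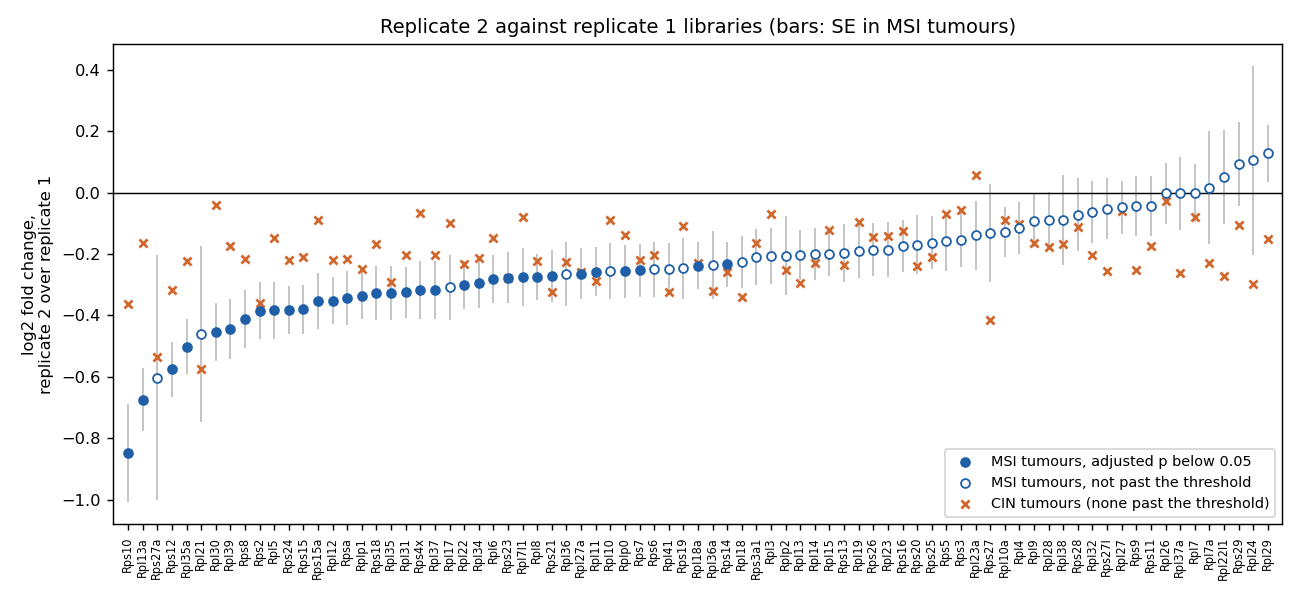
Log2 fold change of replicate 2 over replicate 1 libraries for 79 tested members (Rpl3l and Rpl36al, with SEs above 0.5, are among those left out), in MSI tumours (circles, filled where the adjusted p is below 0.05, with SE bars) and CIN tumours (crosses). Nearly all points lie below 0, and Rps10 and Rpl13a lie lowest in MSI tumours at -0.85 and -0.67.

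In CIN tumours the same sign prevailed, but no member passed. Here 0 of 82 members and 0.0% of all genes passed edgeR's test, with 35 members at an unadjusted p below 0.05 and 13 called by DESeq2, all lower. Of all genes, 1684 of 18777 had an unadjusted p below 0.05, and DESeq2 called 403 of 32782. The log2 fold change was negative for 80 of 82 members, with a median of -0.21 against 0.04 over all genes. The CPM ranges did not overlap for 22 members (26.8%), all lower in replicate 2, against 3.59% of all genes lower and 2.65% higher. Rps12 gave -0.32 ± 0.092, Rplp1 -0.25 ± 0.077 and Rpl13a -0.16 ± 0.10. The difference between the lines was tested itself and passed for 0 members and 0.0% of all genes, with 2 members at an unadjusted p below 0.05, Rpl13a (-0.51 ± 0.15) and Rpl30 (-0.42 ± 0.13), and 1 member in DESeq2. Of all genes, 5699 of 18777 had an unadjusted p below 0.05 for this difference, and DESeq2 called 4289 of 32782.

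Over both lines the pattern was broad but shallow. With the replicate number as 1 term over all groups, a comparison added after the data were seen, 81 of 82 members had a negative log2 fold change, with a median of -0.22 against -0.02 over all genes. None passed edgeR's test, like 0.0% of all genes, while 55 members had an unadjusted p below 0.05. The matching unadjusted count over all genes is not given here. The smallest adjusted p was 0.0562, for Rps12 (-0.45 ± 0.076). DESeq2 called 32 members, scaling by plain totals 21 and upper quartile scaling 2, and leaving out the 5 muscle-rich libraries in an additive model gave 43 of 81. Over all genes the same settings called 2798 of 32782, 262 and 102 of 18777, and 5202 of 19383. Within groups, 30 members were lower in replicate 2 in all 8 groups and 56 in at least 7, counts that were made for members only. The number lower ran from 43 of 82 in CIN tumours given CIN free DNA, where 51.3% of all genes were lower, to 80 of 82 in MSI tumours given MSI micronuclei, where 46.8% were.

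For 11 members all 8 replicate 2 libraries lay below all 8 replicate 1 libraries (13.4%, against 0.607% of all genes lower and 0.314% higher), among them Rpl11, Rpl15, Rpl18, Rpl22, Rpl27a, Rpl35, Rplp1, Rps14, Rps24 and Rps7. Rpl22 is an example from the large subunit, with replicate 1 libraries from 439 to 471 CPM (median 459) and replicate 2 libraries from 350 to 411 CPM (median 381). The stalk gene Rplp1 ran from 995 to 1186 CPM (median 1047) in replicate 1 and from 820 to 956 CPM (median 838) in replicate 2. Rpl18 and Rpl35, whose promoters are printed above and which were singled out after their values were seen, ran from 679 to 801 against 558 to 663 CPM and from 276 to 325 against 211 to 259 CPM. No member was higher in replicate 2 without overlap.

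Lists of related genes were read by replicate number in MSI tumours as well, where 18% of all genes passed lower and 13.4% higher. Of 43 genes of ribosomal RNA processing and subunit assembly 29 fell and 0 rose, with a median log2 fold change of -0.45, among them Heatr1 (-0.76 ± 0.18), the acetyltransferase Nat10 (-0.67 ± 0.12) and Nop58 (-0.67 ± 0.19). Of 15 RNA polymerase I genes 6 fell, with the catalytic subunit gene Polr1a at -0.59 ± 0.19, Cd3eap at -0.48 ± 0.15 and Polr1b at -0.47 ± 0.13. Of 15 other TOP mRNAs 5 fell, including Nap1l1 (-0.73 ± 0.15), Npm1 (-0.57 ± 0.14) and Hnrnpa1 (-0.44 ± 0.12). Of 11 regulators 3 fell and 2 rose: Myc (-0.85 ± 0.15), Eif4ebp1 (-0.85 ± 0.12) and Rptor (-0.51 ± 0.11) were lower, and Max (0.81 ± 0.21) and the scarce Mycn (2.26 ± 0.43) higher. Of the mitochondrial ribosomal proteins most did not pass, with 7 of 77 lower, 1 higher and a median of -0.01. In CIN tumours no gene of these lists passed, and 4 of 43, 2 of 15, 1 of 15, 1 of 11 and 16 of 77 had an unadjusted p below 0.05, in the order given. Of all genes there, 1684 of 18777 did.

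Markers of other cells differed between the same libraries. In MSI tumours the colon epithelium markers summed to 425 to 2859 CPM in replicate 1 and 5639 to 8902 CPM in replicate 2, with 11 of 11 positive and 0 past the threshold. Smooth muscle markers summed to 410 to 1126 against 1757 to 4492 CPM, and 3 of 8 rose. Macrophage markers summed to 997 to 1297 against 652 to 793 CPM, and 5 of 7 fell. Mitochondrial genes held 1.43 to 1.71% of replicate 1 counts against 2.29 to 3.68% of those of replicate 2. Cell cycle genes summed to 2650 to 3531 against 1834 to 2280 CPM, and 13 of 14 fell. In CIN tumours the epithelial sums overlapped (97.3 to 4820 against 2388 to 6099 CPM), as did the macrophage sums (734 to 976 against 747 to 918 CPM) and the cell cycle sums (2629 to 4261 against 2359 to 3747 CPM). Skeletal muscle sums there were 7.16 to 258 CPM in replicate 1 and 9.37 to 249 CPM in replicate 2. The part of these other cells in the lower ribosomal protein levels of replicate 2 was not tested.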

How the data were processed

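The authors deposited gene counts and, in a separate table, FPKM. According to the submitters' processing notes, fastp, HISAT2 2.0.5 and featureCounts 1.5.0-p3 were used with build GRCm39, while 82 of the 84 members have the coordinates of GRCm38 in the deposited table. Deposited FPKM equalled the deposited count over length and 1 total per library (largest relative deviation 5.22e-15), and that total was 0.899 to 1.08 times the summed counts. The sources used here give no strand setting, and the labels name both stranded and unstranded kits, so overlapping antisense genes could not be told apart. Of the columns in each deposited table, 4 matched no sample and were not used.

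From the counts, edgeR 4.0.16 in R 4.3.3 fitted 1 mean per group over all 16 libraries, with TMM scaling, filterByExpr (18777 genes), robust quasi-likelihood tests and Benjamini-Hochberg adjustment at 0.05. Interactions are halved. Replicate number terms within each tumour line were added for those comparisons. CPM use the TMM factors, and log2 CPM a prior count of 2. Log2 fold changes are given ± SE. The test was run on simulated data with less spread than these data had over all genes, and with larger changes than most members showed. That run therefore says little about small differences. Alternatives were other scalings, no filter, DESeq2 1.42.0, each library left out, and blocks by replicate number. Overlap between genes was counted in 100-base words of GENCODE M21 transcripts.

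Members and gene lists were chosen with earlier results of these data known. Named members were, per comparison, up to 6 called rises and 6 falls, a fixed set of subunit genes and paralogues, the 4 highest and 4 lowest in FPKM and the 4 most and 4 least variable; in each list, up to 3 called genes per direction. Some items are not reported here.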

Additional observations from a re-analysis of the deposited data

Results flagged for a closer look

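Among 68 sets of 8 libraries (named members, and the share of all members, within 1 tumour line), 3 held a library whose gap to its nearest neighbour, as a share of the set's range, exceeded Dixon's 95% critical value of 0.526. Chance gives about 1 in 20 such sets. Rpl3l, the muscle paralogue of Rpl3, was high in the MSI tumour library with CIN micronuclei 1 (gap share 0.595, log2 CPM 1.00), at 1.87 CPM against at most 0.268 CPM in the other MSI tumour libraries. That library also had the highest skeletal muscle marker sum of all, 647 CPM. Rplp2 was high in the MSI tumour library with MSI micronuclei 1 (0.617, log2 CPM 8.87), at 469 CPM against 317 to 368 CPM. Rps27 was low in the CIN tumour library with MSI micronuclei 2 (0.568, log2 CPM 6.40), at 84.1 CPM against 170 to 290 CPM. No explanation of these values was tested.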

How the results depend on the processing

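The counts of members depended on the scaling and on single libraries, and no value past its threshold reversed direction. For tumour type (2 members) the count was 1 with upper quartile scaling, with plain totals and with no filter, 4 with TMM factors without the members, 6 scaled to the members, 6 with DESeq2, 0 in the additive model of 11 libraries, and 0 to 2 with single libraries left out. For the replicate number in MSI tumours (33) it was 16 with DESeq2 size factors, 12 with TMM factors without the members, 4 scaled to the members, 11 with no filter and 6 to 40 with single libraries left out. In CIN tumours (0) DESeq2 called 13, where 403 of 32782 genes passed. For the difference of the lines (0) it was 1 in DESeq2, where 4289 of 32782 genes passed, and 0 to 1 with single libraries left out. For the replicate number over both lines (0) it was 2 with upper quartile scaling, 21 with plain totals, 32 with DESeq2, 43 in the additive model and 0 to 16 with single libraries left out. The DNA source, form and interaction counts stayed at 0 in each alternative run. With the replicate block the tumour count was 11 (7 higher, 4 lower), and with a replicate block within each line 12 (8 higher, 4 lower), each including Rpl32 and Rps27l, while 1778 and 3428 of 18777 genes passed against 1089 without a block. Correlations of the libraries' deviations from their group means, matched by replicate number, ran from 0.396 to 0.796 among MSI groups but from -0.326 to 0.380 among CIN groups. Between MSI and CIN groups they ran from -0.539 to 0.654. The numbers thus marked a shared deviation within MSI tumours, but not throughout the CIN groups or across the lines. For single members, 107 of the alternative values lost the threshold and 13 gained it. Leaving out 1 library assumed, for tumour type and DNA, that its lone partner varies like the other groups. For the replicate number the group mean takes up the lone partner, so leaving out either library of a pair removes that pair. Depth limits Rpl3l, Rpl36al and Rpl24 most, at a few CPM or less.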

Other observations

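Other ribosomal protein rows fall outside the naming rule. Fau, whose product holds a small subunit protein joined to a ubiquitin-like domain, had 410 ± 28.1 CPM in replicate 1 and 414 ± 16.9 CPM in replicate 2 libraries of MSI tumours (SD, n = 4 each), and 420 ± 43.5 and 339 ± 35.6 CPM in CIN tumours. Rack1, a scaffold on the small subunit, had 1397 ± 109 and 1178 ± 53.4 CPM in MSI tumours and 1458 ± 140 and 1428 ± 154 CPM in CIN tumours. Neither passed edgeR's test for the tumour type or the replicate number.

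Rps4l, an Rps4x-like row typed as a pseudogene, went the other way. In MSI tumours it had 1.37 to 2.65 CPM in replicate 1 and 7.13 to 13.3 CPM in replicate 2, a log2 fold change of 2.49 ± 0.33 (adjusted p 0.00528, edgeR). In CIN tumours the corresponding ranges, 1.15 to 3.53 and 2.31 to 5.16 CPM, overlapped. All 298 rows named as pseudogenes of members together held 0.15 to 0.217% of counts.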
